A study of Mus musculus with 8 samples.

Results

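Matricellular proteins were followed here as 9 genes, Postn, Tnc, Ccn1, Ccn2, Sparc, Thbs1, Thbs2, Tgfbi and Fn1, of 19938 genes that had a probe set of their own on the arrays. A gene was represented by the brightest probe set annotated to that symbol alone. Each of the 9 had 1 such probe set, and all 9 passed the filter on dim genes. The cells were bone marrow stromal cells of C57BL/6 mice aged 6 to 8 weeks, cultured on Skelite, a calcium phosphate scaffold. The medium was either osteoinductive, a composition meant to turn stromal cells into osteoblasts, or growth medium. In each medium 1 array was made in each of 4 conditions. These were microgravity in flight, a 1g centrifuge in flight, both in automated incubation units inside the KUBIK incubator, then manually operated incubation units on the ground, and 24-well dishes in the laboratory. Thus 4 arrays came from flown cultures and 4 from ground-based ones, and the flown and ground units also differed in how they were operated. No label says that the arrays came from separate animals or cultures, so p-values measure only how these 8 arrays vary, part of which may be technical.

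Matricellular proteins are secreted into the extracellular matrix, where they bind integrins, growth factors and structural fibres and regulate how cells attach, migrate and signal. Many are induced by transforming growth factor beta (TGF-beta) or, when cells are stretched and spread, by the YAP and TEAD transcription factors. In bone, periostin, SPARC (osteonectin) and fibronectin are deposited by osteoblasts and their precursors and contribute to the assembly and mineralisation of collagen.

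Values are given as log2 intensity. Array medians ranged from 180.9 to 196.4 in intensity, and 13205 genes with a mean log2 intensity above 7.14 were tested with limma. Of 11 stromal cell markers on the array, 10 were above that level on both sides of the flight comparison, and Lepr was below it throughout. Of these 11, 2 were higher in flight and 5 lower. The lowest changes were those of Vcam1 (-0.59) and Pdgfrb (-0.56), and the highest those of Eng (0.80) and Lepr (0.45). The summed intensity of the 11 was 12621 to 14640 on flown arrays, against 14804 to 15712 on ground-based arrays. Of 6 osteoblast markers 3 were higher in flight and 0 lower. Markers of other cell types were also present. In flight all 12 neuron markers, 10 of 12 skeletal muscle markers, all 10 endothelial markers and 5 of 10 lung epithelial markers were higher. In these lists 0 members were lower. Of 10 macrophage markers 1 was higher and 1 lower, and of 5 platelet and megakaryocyte markers 2 were higher and 0 lower. All marker counts are from a fit without the filter, in which 5533 of 19938 genes passed in flight, 41.8% of them higher. On ground-based arrays 4 neuron, 7 muscle, 4 endothelial and 4 lung markers were above the filter level, against 12, 11, 9 and 7 on flown arrays. The summed intensity of the neuron markers was 8757 to 13108 on flown arrays, against 3062 to 4111 on ground-based arrays. For lung markers it was 2337 to 15153 on flown arrays, against 1287 to 1443 on ground-based arrays, and was highest on the osteoinductive microgravity array. The part of these markers in the changes of the 9 genes was not tested. In whole cultures, fewer cells of a type and less RNA per cell cannot be told apart.

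Culture medium gave more calls among the 9 genes than any other comparison. In osteoinductive relative to growth medium, 8 of the 9 genes passed the test at an adjusted p under 0.05, 5 higher and 3 lower, where 14.5% of all tested genes passed, 6.42% higher and 8.13% lower. The median change of the 9 genes was 0.34 on the log2 scale, beside -0.02 over all tested genes. The genes that were higher were Ccn2, Postn, Thbs2, Tgfbi and Fn1, and those that were lower were Tnc, Ccn1 and Thbs1. Sparc did not pass. For 6 of the 9 genes the 4 osteoinductive arrays did not overlap with the 4 growth arrays, where 9.73% of tested genes were separated in this way.

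The fasciclin-domain proteins were both higher in osteoinductive medium. Postn encodes periostin, which binds collagen and integrins and promotes collagen cross-linking. Its log2 intensity was 10.66 in microgravity, 10.53 on the centrifuge, 9.98 in the ground unit and 10.51 in the dish in osteoinductive medium, against 9.60, 9.34, 8.57 and 8.59 in growth medium in the same order. Every osteoinductive array was above every growth array, and in growth medium both flown arrays were above both ground-based arrays. The medium difference was 1.39 ± 0.12 (SE), a 2.63-fold increase (adjusted p = 1.67e-05). Tgfbi encodes a related protein that TGF-beta induces and that links collagen to integrins. Its osteoinductive values were 10.19, 9.88, 10.11 and 10.47, against 8.62, 8.60, 9.37 and 9.59 in growth medium. The media did not overlap, and the lowest arrays were the 2 flown growth cultures, the opposite of the order seen for Postn. Tgfbi was 2.17-fold higher in osteoinductive medium (log2 1.12 ± 0.12, adjusted p = 8.8e-05).

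The CCN proteins, which bind heparan sulphate and integrins and are widely used as readouts of YAP and TEAD, moved in opposite directions. Ccn2, also known as connective tissue growth factor, read 12.07, 12.31, 11.76 and 12.13 in osteoinductive medium, against 10.21, 9.75, 9.91 and 10.04 in growth medium. The 2 media lay far apart with little spread within each. Ccn2 rose 4.26-fold (log2 2.09 ± 0.11, adjusted p = 2.42e-07), the largest medium difference of the 9 genes. Ccn1, also known as Cyr61, read 11.17, 11.18, 11.40 and 11.36 in osteoinductive medium, against 11.47, 11.86, 11.98 and 11.87 in growth medium. All osteoinductive arrays lay below all growth arrays, with microgravity in growth medium the nearest to them. Ccn1 was 1.44-fold lower (log2 -0.52 ± 0.09, adjusted p = 0.00217).

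The thrombospondins also parted. Thbs2 encodes a protein that inhibits angiogenesis and contributes to collagen fibre assembly. It read 10.33, 10.28, 10.04 and 10.40 in osteoinductive medium, against 8.78, 8.97, 9.04 and 9.003 in growth medium. The media did not overlap, and Thbs2 was 2.48-fold higher in osteoinductive medium (log2 1.31 ± 0.10, adjusted p = 3.77e-06). Thbs1, whose product can activate latent TGF-beta, read 11.40, 10.87, 11.43 and 11.44 in osteoinductive medium, against 11.44, 11.71, 11.75 and 11.81 in growth medium. The lowest growth array, in microgravity, was at about the level of 3 of the osteoinductive arrays, and the osteoinductive centrifuge array stood below the rest. Thbs1 was 1.31-fold lower in osteoinductive medium (log2 -0.39 ± 0.11, adjusted p = 0.0384).

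Tnc encodes tenascin C, a large oligomeric glycoprotein that modulates adhesion to fibronectin. It read 9.94, 9.82, 11.52 and 11.24 in osteoinductive medium, against 11.33, 11.80, 12.03 and 11.84 in growth medium. The 2 flown osteoinductive cultures lay well below all other arrays, and the growth microgravity array lay between the 2 ground-based osteoinductive arrays. Tnc was 2.17-fold lower in osteoinductive medium (log2 -1.12 ± 0.19, adjusted p = 0.00208). Fn1 encodes fibronectin, the adhesive glycoprotein on which many other matrix proteins assemble. It read 13.62, 13.65, 13.53 and 13.57 in osteoinductive medium, against 12.99, 13.26, 13.39 and 13.37 in growth medium. The media were separated by a narrow margin, and the difference was 1.27-fold (log2 0.34 ± 0.10, adjusted p = 0.0319). Sparc encodes osteonectin, a calcium- and collagen-binding protein abundant in bone. It read 11.73, 11.68, 11.89 and 11.86 in osteoinductive medium, against 11.48, 11.64, 11.74 and 11.69 in growth medium. These ranges overlapped, and the difference of 0.15 had a 95% interval of -0.03 to 0.33 (adjusted p = 0.265).

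**Figure D1:**
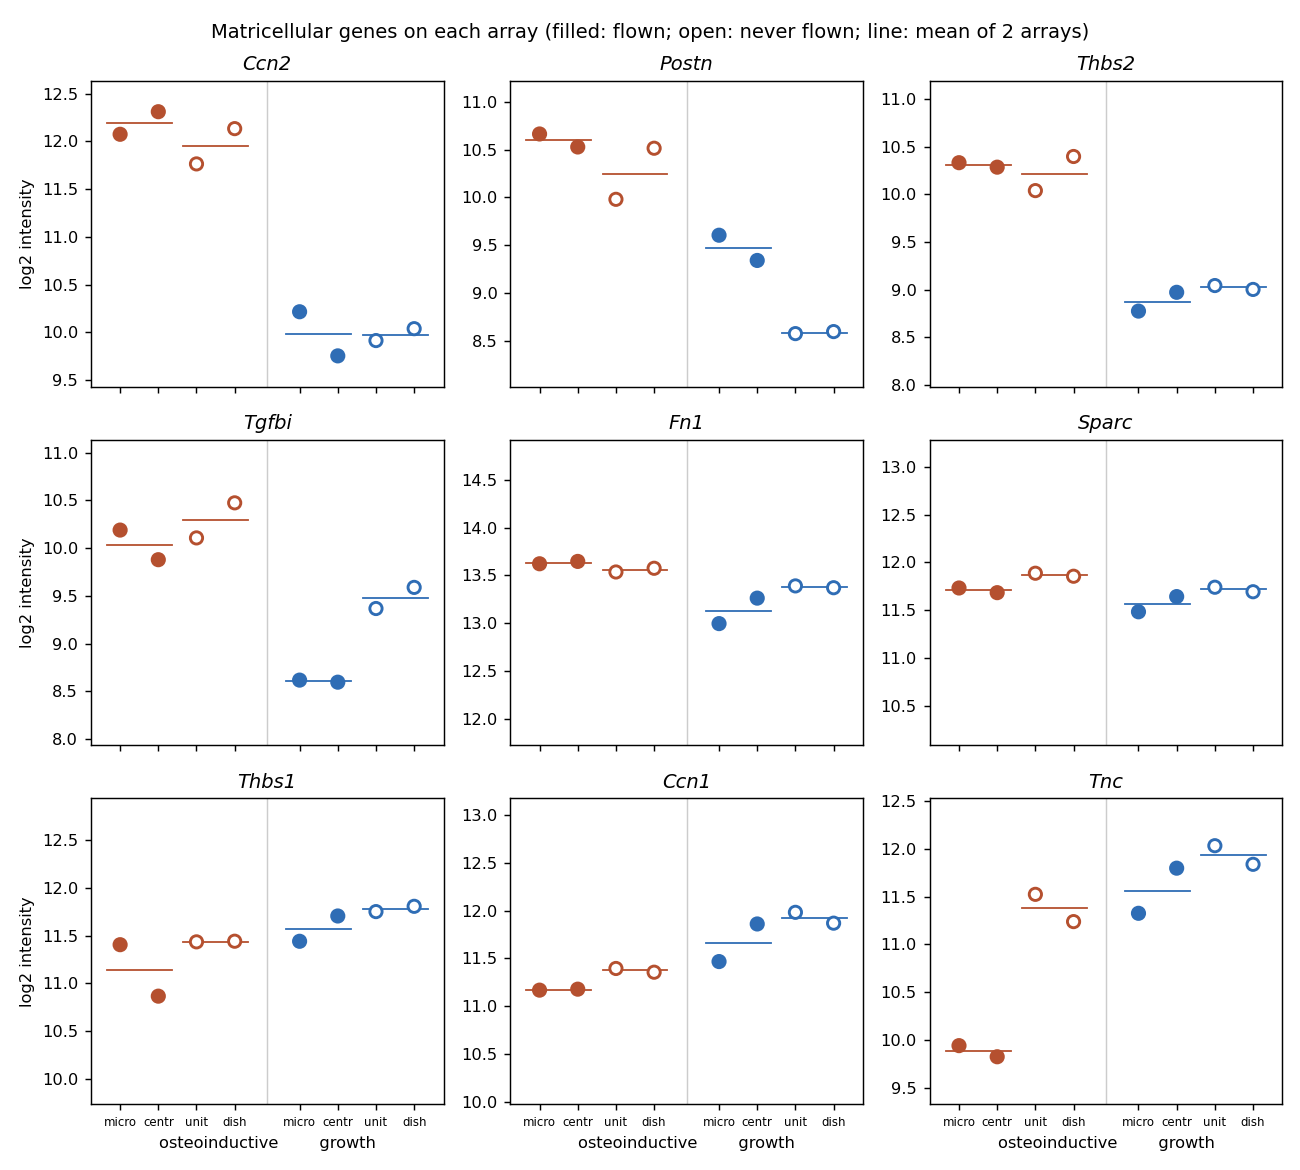
Log2 intensity of the 9 genes on each of the 8 arrays, osteoinductive on the left and growth on the right of each panel, in the order microgravity (micro), centrifuge (centr), ground unit and dish; every panel spans the same log2 range. Filled points are flown cultures, open points ground-based ones and lines the mean of 2 arrays; Ccn2, Postn, Thbs2 and Tgfbi are higher in osteoinductive medium on all arrays, and Tnc is lowest on the 2 flown osteoinductive arrays.

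The medium calls of Thbs1 and Fn1 were the least secure. Without the filter on dim genes their adjusted p-values were 0.0619 for Thbs1 and 0.0512 for Fn1. Thbs1 did not pass when either centrifuge array (log2 -0.24, adjusted p = 0.154), either ground unit array (-0.41, 0.053) or either dish array (-0.40, 0.0601) was left out. Fn1 did not pass when either microgravity array (log2 0.24, adjusted p = 0.114) or either centrifuge array (0.33, 0.109) was left out. The other 6 genes passed whichever array was left out. Leaving out either array of a condition gives the same medium fit, so these are 4 different fits, not 8.

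Sequences just before the start of transcription are shown for genes that moved together with medium, 3 that were higher in osteoinductive medium and 2 that were lower. They are the 250 bases before the annotated start, on the gene's strand, from RefSeq (GRCm38.p6). The RefSeq windows, which run from 250 bases before to 50 after the start, matched 6 of the 9 genes, and Ccn2, Thbs1 and Fn1 are named only. Postn and Tnc each had 2 windows listed, of which only that at the annotated gene start was shown and searched. Capitals mark matches to the motifs described after them.
Postn, chr3:54359017-54359266, plus strand: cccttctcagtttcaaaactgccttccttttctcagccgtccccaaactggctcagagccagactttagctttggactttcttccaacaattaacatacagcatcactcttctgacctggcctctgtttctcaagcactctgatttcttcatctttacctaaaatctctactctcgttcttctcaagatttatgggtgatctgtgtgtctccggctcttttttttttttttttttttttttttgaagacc
Thbs2, chr17:14694263-14694512, minus strand: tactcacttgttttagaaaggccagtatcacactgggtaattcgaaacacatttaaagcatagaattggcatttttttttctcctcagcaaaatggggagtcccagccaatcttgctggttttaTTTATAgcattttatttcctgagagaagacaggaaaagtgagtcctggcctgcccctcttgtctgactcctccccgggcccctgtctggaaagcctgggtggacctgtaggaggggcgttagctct
Tgfbi, chr13:56609336-56609585, plus strand: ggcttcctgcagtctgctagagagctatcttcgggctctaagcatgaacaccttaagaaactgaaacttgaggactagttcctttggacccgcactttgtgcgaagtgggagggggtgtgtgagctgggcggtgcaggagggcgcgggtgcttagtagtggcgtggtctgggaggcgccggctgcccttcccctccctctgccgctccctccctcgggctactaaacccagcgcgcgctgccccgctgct
Ccn1, chr3:145649986-145650235, minus strand: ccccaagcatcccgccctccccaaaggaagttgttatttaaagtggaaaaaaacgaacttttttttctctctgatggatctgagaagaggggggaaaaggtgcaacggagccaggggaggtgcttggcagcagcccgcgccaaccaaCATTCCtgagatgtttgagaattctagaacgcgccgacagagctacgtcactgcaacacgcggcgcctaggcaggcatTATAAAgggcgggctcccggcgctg
Tnc, chr4:64047016-64047265, minus strand: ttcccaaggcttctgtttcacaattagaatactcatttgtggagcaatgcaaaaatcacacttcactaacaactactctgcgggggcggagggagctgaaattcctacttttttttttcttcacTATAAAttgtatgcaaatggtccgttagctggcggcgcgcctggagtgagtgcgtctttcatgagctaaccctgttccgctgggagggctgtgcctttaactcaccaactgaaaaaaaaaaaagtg

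Both strands of the 300-base windows were searched for 6 motifs. The TEAD motif GGAATG occurred in 1 of the 6 windows, that of Ccn1, where it lies on the opposite strand and begins 103 bases before the start, and in 14.7% of all 32851 RefSeq windows. The TATA motif TATAAA occurred in 3 windows and in 13.6% of all windows: 25 bases before the start in Ccn1, 126 bases before it in Tnc, and on the opposite strand 126 bases before it in Thbs2. A RUNX motif, TGTGGT, occurred in the window of Sparc, on the opposite strand 35 bases after the start, and in 16.8% of all windows. The AP-1 motif TGANTCA (7.81% of all windows), the SMAD motif GTCTAGAC (0.213%) and the CArG box, the site of serum response factor (1.63%), had no match in the 6 windows. The 3 genes higher in osteoinductive medium shared none of these motifs in the sequences shown. Matches are descriptions of the letters only.

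The size of the medium difference varied between conditions, each of which has 1 array per medium. For Ccn2 it ranged from 1.85 in the ground unit to 2.56 on the centrifuge. For Postn it ranged from 1.06 in microgravity to 1.92 in the dish, while for Tgfbi it was smallest in the ground unit at 0.74 and largest in microgravity at 1.57. Thbs2 ranged from 0.99 to 1.55 between the same 2 conditions as Tgfbi. All 4 were thus higher in osteoinductive medium in 4 of 4 conditions. Tnc was lower in 4 of 4 conditions, the difference running from -1.98 on the centrifuge to -0.51 in the ground unit. Fn1 was higher in 4 of 4, from 0.15 in the ground unit to 0.63 in microgravity. Thbs1 was lower in 4 of 4, from -0.84 on the centrifuge to -0.04 in microgravity.

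**Figure D2:**
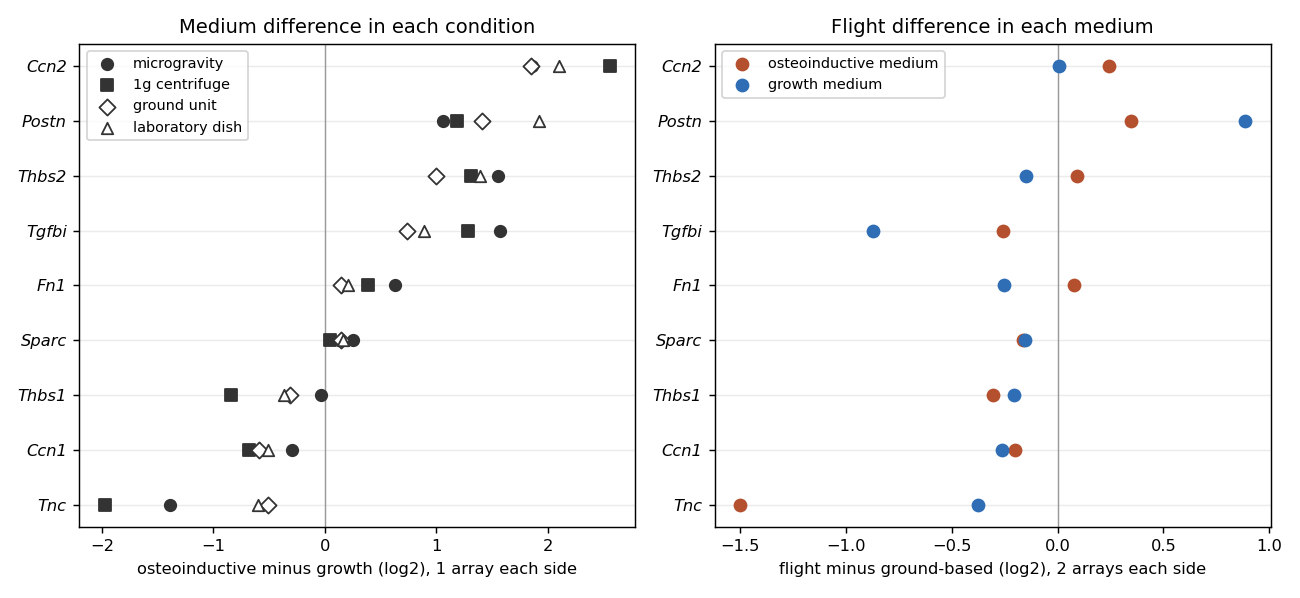
Left, osteoinductive minus growth log2 difference of each gene in each of the 4 conditions, 1 array on each side. Right, flight minus ground-based log2 difference in each medium, 2 arrays on each side; the Tnc difference was -1.50 in osteoinductive and -0.37 in growth medium, while Postn was higher in flight by 0.35 and 0.89.

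Between flown and ground-based cultures, 3 of the 9 genes passed, 1 higher and 2 lower, where 38.4% of all tested genes passed, 12.7% higher and 25.7% lower. The count of 3 was close to that background. Postn was 1.54-fold higher in flight (log2 0.62 ± 0.14, adjusted p = 0.00418). Tnc was 1.92-fold lower (log2 -0.94 ± 0.19, adjusted p = 0.00299) and Tgfbi 1.48-fold lower (log2 -0.56 ± 0.13, adjusted p = 0.00681). Of the tested genes, 2.99% changed by more than Tnc, 7.29% by more than Postn and 8.90% by more than Tgfbi. The median change of the 9 genes was -0.16, beside -0.09 over all tested genes. The other genes that did not pass were Thbs1 at -0.25 (95% interval -0.50 to -0.01), Ccn1 at -0.23 (-0.43 to -0.03), Sparc at -0.16 (-0.32 to 0.0039), Fn1 at -0.09 (-0.29 to 0.12), Thbs2 at -0.03 (-0.24 to 0.18) and Ccn2 at 0.13 (-0.14 to 0.39). The intervals are not adjusted for the number of genes.

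The 4 flown and 4 ground-based arrays overlapped for all 9 genes, where 28% of tested genes did not overlap. Within each medium the picture differed. Postn was above both ground-based arrays on both flown arrays in either medium. For Tnc, Ccn1, Sparc and Thbs1 both flown arrays lay below both ground-based arrays in either medium. These 5 of 9 genes compare with 42.9% of tested genes, 14.7% higher and 28.2% lower. Some of the margins were narrow. In osteoinductive medium Postn read 10.53 on the centrifuge against 10.51 in the dish, and Thbs1 11.40 in microgravity against 11.43 in the ground unit. Ccn1 in growth medium read 11.86 on the centrifuge against 11.87 in the dish. Tgfbi was separated in growth medium, where flown arrays read 8.62 and 8.60 and ground-based arrays 9.37 and 9.59. In osteoinductive medium its flown microgravity array, at 10.19, was above the ground unit at 10.11.

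The 3 flight calls stood with any 1 array left out, but none of the 3 passed in a fit with no term for medium (adjusted p = 0.341 for Postn, 0.121 for Tnc and 0.292 for Tgfbi). Without the growth centrifuge array 6 of the 9 genes passed, and 51.6% of all tested genes did in that fit, Ccn1 (log2 -0.30, adjusted p = 0.00954), Sparc (-0.19, 0.0419) and Thbs1 (-0.32, 0.0362) being added, all lower. Thbs1 also passed without the osteoinductive microgravity array (-0.35, 0.0312). Bright probe sets as a whole read lower in flight: of the 1321 genes in the brightest decile, which held 6 of the 9, 2.12% were higher and 37.4% lower. The part of brightness in the lower values of these genes was not tested.

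**Figure D3:**
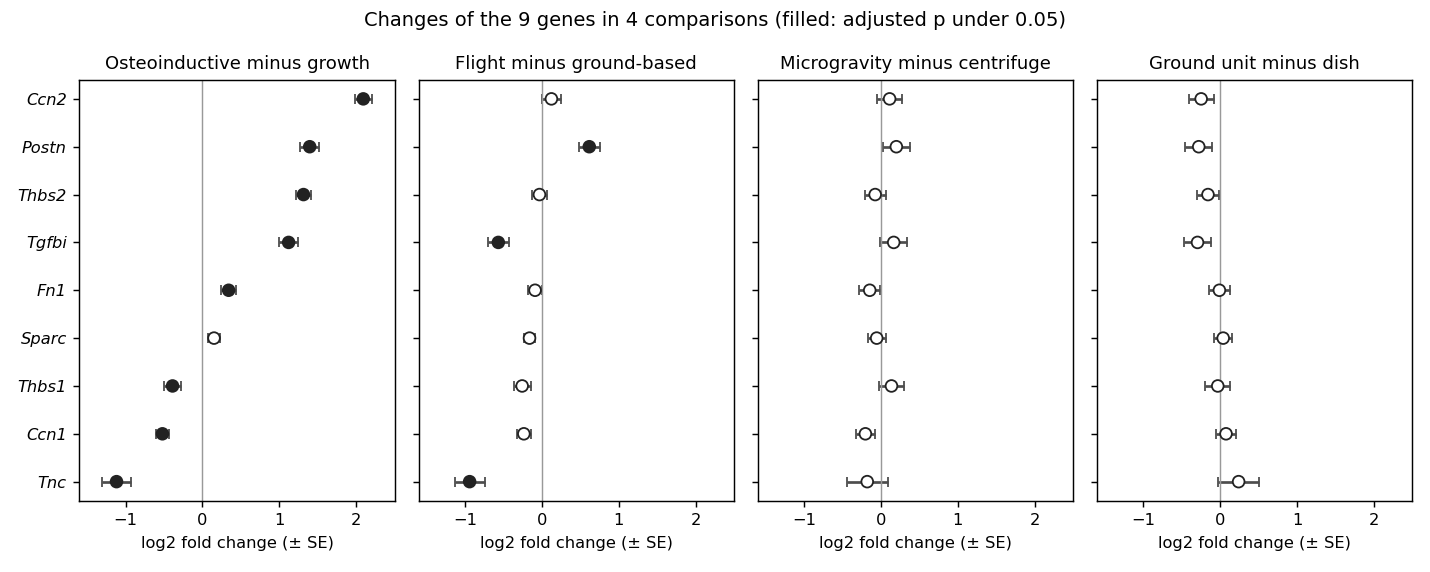
Log2 fold change ± SE of the 9 genes in 4 comparisons over 8 arrays, with filled points for an adjusted p under 0.05. Of 9 genes, 8 passed for medium, 3 for flight and 0 for both comparisons on the right, microgravity minus centrifuge and ground unit minus dish.

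Each flown condition was also set against the ground unit, and both comparisons share the ground unit arrays. All 3 conditions used incubation units, but automated ones in flight and manually operated ones on the ground, so flight and operation cannot be told apart. In microgravity, 3 of 9 genes passed, 1 higher and 2 lower, against 28.7% of all tested genes, 10.6% higher and 18.1% lower. Postn was 1.81-fold higher (log2 0.86 ± 0.17, adjusted p = 0.00369), Tnc 2.21-fold lower (log2 -1.15 ± 0.27, adjusted p = 0.00793) and Ccn1 1.29-fold lower (log2 -0.37 ± 0.13, adjusted p = 0.0431). On the centrifuge, 2 of 9 genes passed, 1 higher and 1 lower, against 10.1% of all tested genes, 6.34% higher and 3.78% lower. Postn was 1.58-fold higher there (log2 0.66 ± 0.17, adjusted p = 0.0299) and Tnc 1.96-fold lower (log2 -0.97 ± 0.27, adjusted p = 0.0377). Tgfbi was at -0.33 in microgravity and -0.50 on the centrifuge, and passed in neither (adjusted p = 0.168 and 0.0936).

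These calls rested on few arrays. Leaving out an array that stands on neither side of a comparison does not move the estimate, only its error and the p-values. That applies below to the dish arrays for Ccn1 and to the microgravity arrays for Tnc on the centrifuge. In microgravity minus ground unit, Postn did not pass without the growth microgravity array (log2 0.64, adjusted p = 0.085). Tnc did not pass without that array (-1.33, 0.0536), the osteoinductive microgravity array (-0.97, 0.0767) or the osteoinductive ground unit array (-0.74, 0.0863). Ccn1 did not pass without the growth microgravity array (-0.22, 0.339), the growth ground unit array (-0.33, 0.269), the osteoinductive ground unit array (-0.42, 0.165) or either dish array (-0.37, 0.0711), after quantile normalization (-0.17, 0.294) or without the filter (adjusted p = 0.0597). Every direction was kept. In centrifuge minus ground unit, Postn did not pass without the growth (0.52, 0.163) or osteoinductive centrifuge array (0.79, 0.106), or without the growth (0.65, 0.111) or osteoinductive ground unit array (0.67, 0.123). Tnc did not pass there without either microgravity array (-0.97, 0.064), the osteoinductive centrifuge array (-0.40, 0.484) or the osteoinductive ground unit array (-0.56, 0.396), after quantile normalization (-0.88, 0.0909) or without the filter (adjusted p = 0.0528).

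The comparison of microgravity with the centrifuge, both in the same flight hardware, comes closest to gravity, with 1 array per medium on each side. Both centrifuge samples also carry a microgravity tag and were placed by their titles. With limma, 0 of the 9 genes passed, and 0% of all tested genes did; at an unadjusted p under 0.05 there were 0 of the 9 and 1507 of all genes. Postn differed by 0.20, with a 95% interval of -0.18 to 0.58, and Tnc by -0.18, with an interval of -0.76 to 0.40. Ccn1 differed by -0.20 (-0.47 to 0.07) and Tgfbi by 0.17 (-0.21 to 0.54). The 2 media disagreed in sign for Tnc, at 0.12 in osteoinductive and -0.47 in growth medium. They disagreed also for Ccn2, at -0.24 and 0.46, and for Thbs1, at 0.54 and -0.26, each in the same order. Sparc, at 0.05 and -0.16, and Thbs2, at 0.05 and -0.20, differed in sign as well. With 8 arrays the intervals reached 0.58 for Postn and -0.76 for Tnc, and a p that misses the threshold does not show equal levels.

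In ground unit minus laboratory dish, limma also called 0 of the 9 genes and 0% of all tested genes, with 0 of the 9 and 269 of all genes at an unadjusted p under 0.05. Tgfbi was at -0.29 (95% interval -0.67 to 0.08), Postn at -0.28 (-0.65 to 0.10), Ccn2 at -0.25 (-0.60 to 0.10) and Tnc at 0.24 (-0.34 to 0.82). The Postn difference came mostly from osteoinductive medium, at -0.54, against -0.02 in growth medium.

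Ordered by condition with both media together, Postn ran highest in microgravity, then the centrifuge, the dish and the ground unit. Tnc ran the other way, highest in the ground unit and then the dish, the centrifuge and microgravity. In osteoinductive medium alone, however, Tnc read higher in microgravity (9.94) than on the centrifuge (9.82). In both orders neighbouring flown conditions, and neighbouring ground-based conditions, did not differ beyond the test's error.

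Whether the flight difference depended on medium was tested with an interaction term. After adjustment limma called 0 of the 9 genes and 0% of all tested genes, while 3 of the 9 and 525 of all genes had an unadjusted p under 0.05. The flight difference of Tnc was -1.50 in osteoinductive and -0.37 in growth medium, an interaction of -1.13 ± 0.23 (unadjusted p = 0.000391, adjusted p = 0.647). Postn was higher in flight by 0.35 in osteoinductive and 0.89 in growth medium (interaction -0.54 ± 0.23, adjusted p = 0.999). Tgfbi was at -0.26 in osteoinductive and -0.87 in growth medium (interaction 0.61 ± 0.22, adjusted p = 0.999). The Tnc interaction passed in the fit without the growth microgravity array (-1.36, adjusted p = 0.0315).

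Within arrays, related genes were set against each other so that shared shifts of an array cancel. The log2 ratio of Postn to Tgfbi was higher on each flown array than on any ground-based array, by 1.18 on average (exact two-sided permutation test of 4 against 4 arrays, p = 0.0286, the smallest that 70 arrangements allow; 0.0857 adjusted over 3 pairs). The ratio of Thbs1 to Thbs2 differed by -0.23 and that of Ccn1 to Ccn2 by -0.36 (exact p = 0.6 each), in a test that takes no account of medium. Within media, the flight difference of the ratio of Ccn1 to Ccn2 was -0.45 in osteoinductive medium, where the groups did not overlap, and -0.27 in growth medium, where they did. That of Thbs1 to Thbs2 was -0.39 and -0.06 in the same order, with overlap in both. That of Postn to Tgfbi was 0.61 and 1.76, with no overlap in either. Permuting flight within each medium, chosen after seeing the data, gave an exact p of 0.0556 for Postn to Tgfbi, the smallest that 36 arrangements allow, and 0.222 for each of the other pairs, with 0.167 and 0.222 after adjustment over 3 pairs. Leaving out 1 array at a time gave 1.01 to 1.35 for Postn to Tgfbi. For the other pairs the sign turned in 4 of 8 such fits, those without the growth ground unit, growth dish, osteoinductive microgravity or osteoinductive centrifuge array. In all 8 such fits the media are no longer balanced between the flown and ground-based sides.

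Related and pathway genes were read in the same fits, as lists chosen with earlier results of these data known. The first list had 17 tested genes, relatives of the CCN, thrombospondin, tenascin and SPARC families together with Stab1, a fasciclin-domain protein. In flight, 10 of these 17 relatives were higher, Stab1 (0.43) among them, and 2 lower. Of all tested genes 12.7% were higher and 25.7% lower. The median of the 17 was 0.34, beside -0.09 for all tested genes. For 1 of the 10, Tnxb, named after its values were seen, all ground-based arrays were under the filter level, so it passed the filter through the flown arrays. Sparcl1, the SPARC relative also called hevin, read 10.49, 9.45, 7.38 and 7.35 in osteoinductive medium in microgravity, centrifuge, ground unit and dish, and 10.28, 9.92, 6.89 and 6.74 in growth medium. All flown arrays were far above all ground-based ones, of which the 2 in growth medium were under the filter level, a 7.69-fold difference (log2 2.94 ± 0.20, adjusted p = 3.6e-07). Spock2, a matrix proteoglycan of the same family, was 2.77-fold higher, while Thbs3 was at -0.27 and Ccn4 at -0.58, both lower. Of the relatives, 2 were called higher when genes under the 60th percentile were left out. The list moved with the neuron, muscle and endothelial markers given above, whose part was not tested.

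Counts in the other lists are read beside the same shares of all genes, 12.7% higher and 25.7% lower. Of 19 other matricellular proteins, whose counts were close to these shares, 3 were higher, among them Cthrc1 (0.64) and the adhesion protein vitronectin (Vtn, 0.78), which passed the filter through the flown arrays, all ground-based arrays being under it. In the same list 4 were lower, among them Olfml3 (-0.56) and the integrin ligand Edil3 (-0.58). Of 19 receptors, 2 were higher, the syndecan Sdc3 (0.82) and Egfr (0.37), and 8 lower. These included the integrin subunit Itgav (-0.63), which pairs with several beta subunits to bind periostin, CCN proteins and fibronectin, and Calr (-0.62), a chaperone that also binds thrombospondin at the cell surface. Of 18 matrix partners and processing enzymes, Pcsk5 was higher (0.40) and 12 were lower, including the collagen chaperone Serpinh1 (-0.66) and the cross-linking enzyme Loxl1 (-0.56). The median log2 change was -0.17 for the other matricellular proteins, -0.26 for the receptors and -0.28 for the matrix partners.

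The last lists hold genes of pathways known to induce matricellular proteins, together with genes that restrain these pathways. Of 19 TGF-beta ligands, latency proteins, receptors and SMADs, the co-receptor Eng was higher (0.80) and 9 were lower, including Ltbp2 (-0.91) and Tgfb3 (-0.56). Of 18 TGF-beta target genes 0 were higher and 11 lower, including smooth muscle actin, Acta2 (-1.65), and Timp1 (-0.72), with a median of -0.40. Of 22 YAP, TAZ and TEAD targets, Igfbp3 was higher (0.91) and 11 lower, including tissue factor, F3 (-0.88), and Dock5 (-0.63). Of 16 Hippo pathway and SRF regulators 0 were higher and 8 lower, including Tead2 (-0.52) and Srf (-0.42). The lower genes of this list also held Stk4 (-0.21), Sav1 (-0.31) and Mob1a (-0.32), which restrain YAP. Those of the TGF-beta ligand list held Smurf1 (-0.24) and Smurf2 (-0.41), which restrain TGF-beta signalling. These restraining genes were named after their values were seen, and the counts do not give a direction for the pathways. The medians were -0.24 for the TGF-beta ligands and receptors, -0.25 for the YAP, TAZ and TEAD targets and -0.23 for the Hippo and SRF regulators. Beside the 25.7% of all tested genes that were lower, these shares are descriptions without a test.

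With medium, the lists are read beside the 14.5% of all tested genes that passed, 6.42% higher and 8.13% lower. The relatives, the TGF-beta targets and the Hippo and SRF regulators were near or under that share. Of the relatives, Ccn5 was higher (0.35) and Ccn4 lower (-0.82), and 15 of 17 did not pass. Of the other matricellular proteins 7 of 19 were higher and 1 lower, and of the receptors 5 of 19 higher and 1 lower. Of matrix partners and processing enzymes 7 of 18 were higher and 0 lower, among them the transglutaminase Tgm2 (1.67) and the protease Adamts1 (1.15). Among TGF-beta ligands and receptors 5 of 19 were higher, including the co-receptor Tgfbr3 (1.31), and 2 lower. TGF-beta targets gave 2 higher and 1 lower of 18. YAP, TAZ and TEAD targets gave 4 higher, including Amotl1 (0.56), and 2 lower, Ankrd1 (-0.63) and Ajuba (-0.40), of 22. Of Hippo and SRF regulators 1 of 16 was higher, Tead4 (0.30). The list medians lay between 0.01 for the receptors and 0.22 for the matrix partners, beside -0.02 for all tested genes. The genes named for medium were chosen after their values were seen. Of 6 osteoblast markers on the array 0 passed for medium in either direction, and 5 of 12 neuron markers were lower in osteoinductive medium. The markers were fitted without the filter, where 1684 of 19938 genes passed for medium, 49.5% of them higher.

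**Figure D4:**
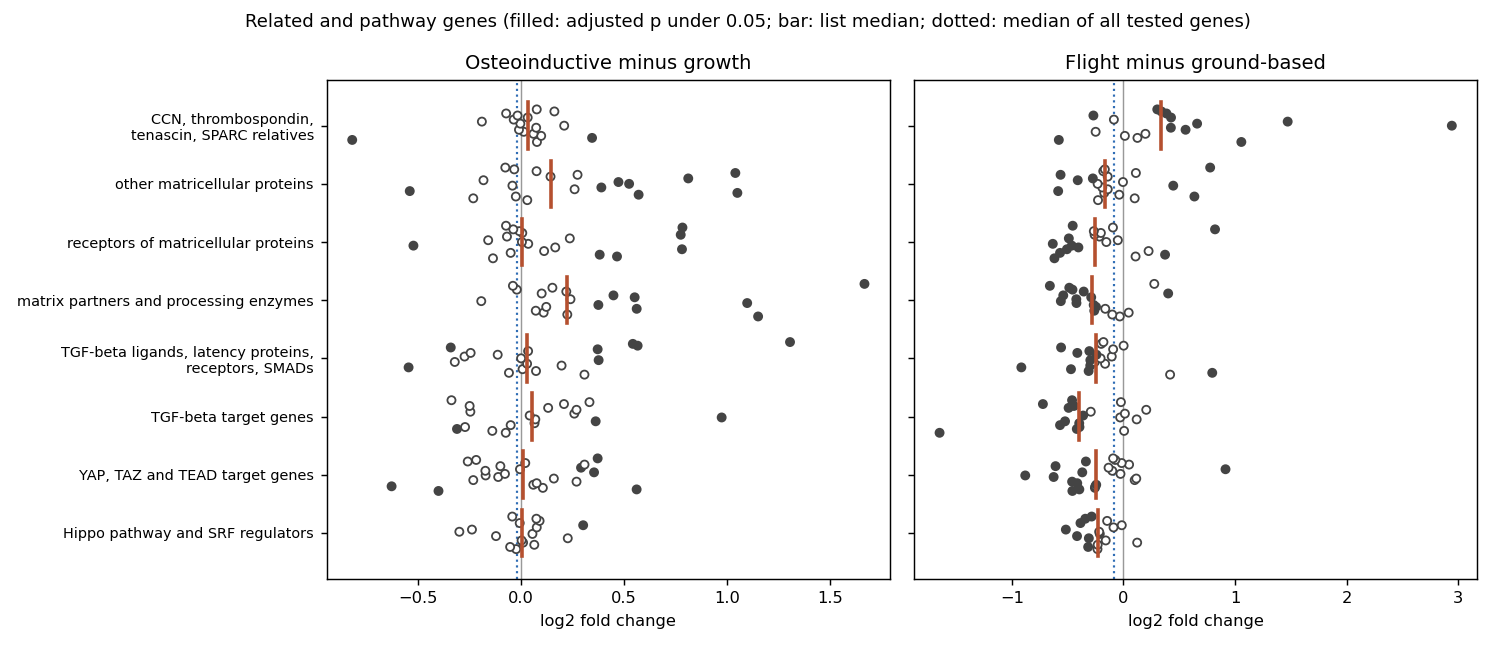
Log2 fold change of each tested gene in 8 lists, for osteoinductive minus growth (left) and flight minus ground-based (right), with filled points for an adjusted p under 0.05. Bars mark list medians and the dotted line the median of all tested genes. The median in flight is 0.34 for the relatives, Stab1 included, and -0.40 for TGF-beta targets.

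The profiles of the 9 genes over the 8 arrays differed among themselves, with SDs from 0.12 for Sparc to 1.06 for Ccn2. Likeness was measured as the root mean square difference of log2 profiles, each centred on its own mean, over 8 arrays. The closest pair among the 9 was Fn1 and Sparc, at 0.14, both of which varied little, followed by Ccn1 and Thbs1, at 0.17. Tgfbi and Thbs2 differed by 0.32. Among 12643 other genes the closest to Ccn2 was Hsd11b1, which encodes the enzyme that regenerates active glucocorticoid, at 0.12, followed by Gprc5b and Pla1a. The closest to Tnc were Gas2, at 0.08, Ak5 and Gbp3. Postn was closest to Csmd3, at 0.11, Slc27a1 and Pfkp, and Thbs2 to Cped1, at 0.09, Adamts1 and Trpc6. Tgfbi was closest to Vegfd, at 0.15, Adamts5 and S100a10, and Ccn1 to Kitl, at 0.06, Golm2 and Orc4. Thbs1 was closest to Fzd7, Prkcd and Orc5, Sparc to Stk11, Cdan1 and Usp19, and Fn1 to Psap, Rhoa and Wbp1l.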

How the data were processed

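Total RNA from 8 samples was amplified, labelled with biotin and hybridised, 1 array per sample, per the labels' protocols. The authors deposited linear intensity values, 1 per probe set and array. RMA and GCRMA are named, without versions, in the submitters' processing notes; which gave these values, and the genome build, are not given in the sources used here. RMA-type summaries compress folds of dim and bright probe sets. Samples were grouped by title. Titles were followed where other labels differ: both centrifuge samples are tagged microgravity, and a line describing the osteoinductive one names growth medium.

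Intensities were log2 transformed without further normalization. Of 35557 probe sets, 21789 named 1 gene, 1621 several and 12147 none in the annotation used here. The brightest probe set stood for a gene, and genes above the 40th percentile (log2 7.14) were tested with limma 3.58.1 in R 4.3.3 (lmFit, eBayes), Benjamini-Hochberg adjusted over 13205 genes within each of 7 comparisons, threshold 0.05, two-sided. Condition and medium comparisons used condition and medium as terms (3 residual degrees of freedom). The flight comparison used flight and medium (5), so the conditions on each side counted as repeats. The interaction fit had 4. Marker genes were fitted without the filter. The number of arrays limits the precision. Named genes were the 9 members, up to 2 highest and 2 lowest called genes per list in flight, and the 3 nearest profiles per member. The members and lists were chosen with earlier results of these data known. Alternatives tried were a 60th percentile filter or none, quantile normalization, 32 added before log2, the mean of a gene's probe sets, no term for medium, only the 4 flown arrays, and leaving out each array.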

Additional observations from a re-analysis of the deposited data

How the results depend on the processing

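The medium calls of Ccn2, Postn, Thbs2, Tgfbi, Tnc and Ccn1 and the flight directions of Postn, Tnc and Tgfbi kept direction under all alternatives run. Quantile normalization turned the sign of Sparc (0.0021) and Thbs2 (0.090) in flight minus ground-based and of Sparc (0.070) and Thbs2 (0.014) in microgravity minus centrifuge, and left 1 of the 9 genes called in centrifuge minus ground unit, as did no filter. No term for medium left 0 of the 9 and 3159 of all genes in flight, against 5068. The 60th percentile filter left 641 genes in centrifuge minus ground unit, against 1336, where fewer genes are tested. Using only the 4 flown arrays called 49 genes in microgravity minus centrifuge and none of the 9. Of the flight calls 33.1% were higher, 40.2% after quantile normalization, 18.9% with the 60th percentile filter and 41.8% with no filter. With 1 array left out, the 9 genes gave 3 to 6 calls in flight, 0 to 3 in microgravity minus ground unit, 0 to 3 in centrifuge minus ground unit, 0 to 1 for the interaction and 6 to 7 for medium. All genes gave 3477 to 6816 calls in flight, 643 to 2087 calls in centrifuge minus ground unit, 1377 to 4695 in microgravity minus ground unit, 0 to 47 in microgravity minus centrifuge, 0 to 15 for the interaction and 1115 to 1623 for medium. In these fits the lone array of a condition is assumed to vary like the others. The ratio of Thbs1 to Thbs2 ran from -0.55 to 0.17 and that of Ccn1 to Ccn2 from -0.95 to 0.13. Thbs2 in flight ran from -0.12 to 0.034. In microgravity minus centrifuge the ranges were -0.022 to 0.42 for Postn, -0.75 to 0.39 for Tnc, -0.20 to 0.42 for Ccn2, -0.13 to 0.017 for Sparc, -0.16 to 0.44 for Thbs1, -0.24 to 0.086 for Thbs2, -0.14 to 0.47 for Tgfbi and -0.34 to 0.045 for Fn1. For the interaction they were -0.14 to 0.26 for Ccn1, -0.089 to 0.070 for Sparc and -0.37 to 0.17 for Thbs1. The cause was not tested. Among the lists in flight, the TGF-beta ligands and receptors had 5 lower after quantile normalization and 4 with no term for medium, against 9 as reported. YAP, TAZ and TEAD targets had 7 and 5 in the same order, against 11, and 2 higher after quantile normalization, against 1. Hippo and SRF regulators had 4 lower after quantile normalization, against 8. With the 60th percentile filter the relatives had 2 higher, against 10, and the matrix partners, TGF-beta ligands and YAP, TAZ and TEAD targets 0, against 1 each. Receptors had 5 higher with no filter and 1 with the 60th percentile filter or no term for medium, against 2. With no term for medium the relatives had 1 lower, against 2, and the other matricellular proteins 2, against 4. TGF-beta ligands had 2 higher with the mean of probe sets, against 1. With 1 array left out, calls lower in flight ran from 4 to 13 for Hippo and SRF regulators, 5 to 11 for TGF-beta ligands and receptors, 7 to 12 for matrix partners (12 as reported), 3 to 7 for other matricellular proteins and 1 to 3 for relatives. No separate paired analysis was run. Each medium and condition has 1 array, and the condition comparisons already hold medium as a term, as the medium comparison holds condition.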
